A study of Rattus norvegicus with 47 samples.

Results

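Defb1, Pcp4, Mmd and Dnaaf1 were 4 of the 14217 genes measured in rat liver lesions on Affymetrix 3' expression arrays. They were selected on their FFPE values, as genes with some of the largest rises over surrounding liver in foci and adenomas cut by laser from formalin-fixed, paraffin-embedded (FFPE) tissue, beside the classical marker Gstp1. Each of the 4 genes had 1 probe set (1369660_at for Defb1, 1368145_at for Pcp4, 1371883_at for Mmd and 1382932_at for Dnaaf1, the last also known as Lrrc50). Because the FFPE values chose the genes, those values are given as a description, and the tests concern frozen arrays, which the choice did not use. Frozen and FFPE lesions share animals, and 2 of the 6 frozen adenomas (replicates 2 and 3) are tumours whose FFPE arrays were among those that chose the genes, so these are not independent of the choice.

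Male Wistar rats received 1 dose of N-nitrosomorpholine (250 mg/kg), a DNA-damaging nitrosamine, when they were 4 weeks old. After a 3-week recovery they were given phenobarbital, a tumour promoter in rodent liver, at 50 mg/kg each day over as long as 17 months, and this treatment was shared by every lesion and by all surrounding liver. Frozen tissue gave 7 arrays of surrounding liver (5 animals), 5 of nodules (3 animals), 6 of adenomas (2 animals) and 4 of carcinomas (3 animals). A further 4 frozen carcinomas (3 animals) carry a beta-catenin mutation by their group label. Laser-microdissected FFPE tissue gave 4 arrays of surrounding liver (4 animals), 9 of foci (3 animals) and 5 of adenomas (3 animals). Several lesions thus came from 1 animal, and p-values measure the spread between these lesions with the animal as a term of the model. The 3 arrays named C43 normal (2 frozen, 1 FFPE) carry labels that also call them treated surrounding tissue, so they entered no comparison. Labels conflict for 2 arrays: FFPE adenoma replicate 4 is called surrounding tissue in its source name, and that of beta-catenin carcinoma replicate 1 leaves the mutation out. Both were kept under their group label, and the values without them are given where they count. The animal was read from titles and control sets, because the source-animal field disagrees with them for animal 21.

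Enzyme-altered foci are small clones of hepatocytes that appear after a carcinogen and can grow into nodules, adenomas and carcinomas, and the rat placental glutathione transferase Gstp1 has long been used to stain them. Defb1 encodes beta-defensin 1, a secreted antimicrobial peptide of epithelia. Pcp4 encodes a small calmodulin-binding protein best known from Purkinje cells, Mmd a membrane protein of the progestin and adipoQ receptor (PAQR) family first described in maturing macrophages, and Dnaaf1 a cytoplasmic factor for the assembly of dynein arms in motile cilia. Gene expression in the text is the deposited log2 probe set value, on which a difference of 1 is a doubling.

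RefSeq start-site windows on the GRCr8 assembly were held for 2 of the 4 genes. They are shown, for Mmd and Pcp4, because both genes rose in frozen adenomas. Each line gives the 250 bases before the annotated start, on the + strand, and capitals mark a CCAAT box read on the opposite strand.
Mmd, chr10:75570203-75570452: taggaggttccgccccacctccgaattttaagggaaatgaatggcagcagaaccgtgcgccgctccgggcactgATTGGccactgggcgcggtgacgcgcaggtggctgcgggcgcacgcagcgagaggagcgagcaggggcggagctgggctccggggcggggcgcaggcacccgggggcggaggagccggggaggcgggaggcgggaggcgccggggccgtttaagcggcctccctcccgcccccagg
Pcp4, chr11:49269936-49270185: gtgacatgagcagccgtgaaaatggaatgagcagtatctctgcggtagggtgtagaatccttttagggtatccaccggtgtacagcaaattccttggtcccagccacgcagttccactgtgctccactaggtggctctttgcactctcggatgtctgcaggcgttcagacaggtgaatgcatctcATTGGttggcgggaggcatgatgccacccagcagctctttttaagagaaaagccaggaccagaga

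Motifs were searched on both strands in the 300 bases from 250 before to 50 after the start. A CCAAT box (CCAAT, searched also as its reverse complement) began 176 bases before the start of Mmd (position -176) and 65 bases before that of Pcp4 (position -65). It occurs in 37.5% of the 33469 promoters of that length. The letters of the antioxidant response element read by NRF2 (TGACNNNGC, in 12.1% of promoters), of an AP-1 site (TGANTCA, 7.33%), of a TCF/LEF site (CTTTGAT, 3.63%), of an NF-kB site (1.53%), of a TATA box (TATAAA, 14.2%) and of the RFX X-box (0.753%) were not in either window. The CCAAT box was thus the only match in each window. The Mmd window was 75% GC and that of Pcp4 53.3%, beside a median of 51.7% over all promoters.

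In FFPE tissue the 4 genes were 8.83-fold to 29.3-fold higher in foci than in surrounding liver, and for Defb1, Pcp4 and Mmd no lesion array came near the surrounding range. Defb1 stood at 6.21, 5.01, 4.74 and 5.17 in the 4 surrounding arrays (animals 10, 14, 18 and 7). In the 9 foci it ran from 8.79 through a median of 9.92 to 11.49. The 5 adenomas had Defb1 at 9.29, 9.87, 8.76, 10.95 and 10.51. Every foci and adenoma array thus lay above every surrounding array, and the gap from the highest surrounding array to the lowest foci array was 2.58. The fitted difference was 4.87 ± 0.37 (SE) in foci, the largest of the 14217 genes, and 4.40 ± 0.41 in adenomas.

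Pcp4 stood at 7.30, 5.21, 5.56 and 4.27 in FFPE surrounding liver. Its values in the 9 foci lay between 9.24 and 10.63 with a median of 10.26. In the adenomas Pcp4 was 9.85, 10.28, 10.67, 10.86 and 9.96. The lesion groups did not overlap surrounding liver, and Pcp4 had the least scatter of the 4 genes among foci (SD 0.44). Differences to surrounding liver were 4.65 ± 0.31 (SE) in foci and 4.58 ± 0.35 in adenomas.

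Mmd in FFPE surrounding liver was 4.83, 4.33, 3.66 and 3.29. The 9 foci ran from 6.25 through 7.67 to 8.06. The adenomas gave 6.98, 7.28, 8.51, 8.72 and 7.09, the 2 highest from animal 14. No lesion array fell within the surrounding range. Mmd was higher by 3.77 ± 0.29 (SE) in foci and by 3.51 ± 0.33 in adenomas.

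Dnaaf1 was the most uneven of the 4 genes in foci. Surrounding liver had 6.93, 4.82, 5.35 and 4.83, and the 9 foci ran from 6.01 through 8.77 to 10.34 (SD 1.30, the 33rd widest spread of 14217 genes in that group). The 5 adenomas were close together at 9.28, 10.43, 10.00, 10.09 and 10.04 (SD 0.42). All 5 adenomas and 8 of 9 foci lay above every surrounding array, and the exception was foci replicate 5 at 6.01, from animal 18. The same array had the lowest Defb1 of the foci, 8.79, but its Mmd (7.92) and Pcp4 (9.78) were within the range of the others. Dnaaf1 was higher by 3.14 ± 0.49 (SE) in foci and by 4.31 ± 0.54 in adenomas.

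All 4 genes passed the call threshold (Benjamini-Hochberg adjusted p under 0.05 over all genes in limma) as higher in foci, where 1.81% of genes did, and as higher in FFPE adenomas, where 1.29% did. These contrasts chose the genes, so the counts and the lack of overlap carry no weight. The share of all genes that separate from the 4 FFPE surrounding arrays was not counted. Without FFPE adenoma replicate 4, the array with the conflicting source name, the adenoma differences were 4.07 for Defb1, 4.47 for Pcp4, 3.42 for Mmd and 4.22 for Dnaaf1. The surrounding array of animal 10 was the highest of its group for all 4 genes and for Gstp1 (12.17, against 7.15 to 9.33 in the others). Without it the foci differences became 5.14 for Defb1, 5.26 for Pcp4, 4.12 for Mmd and 3.67 for Dnaaf1.

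**Figure D1:**
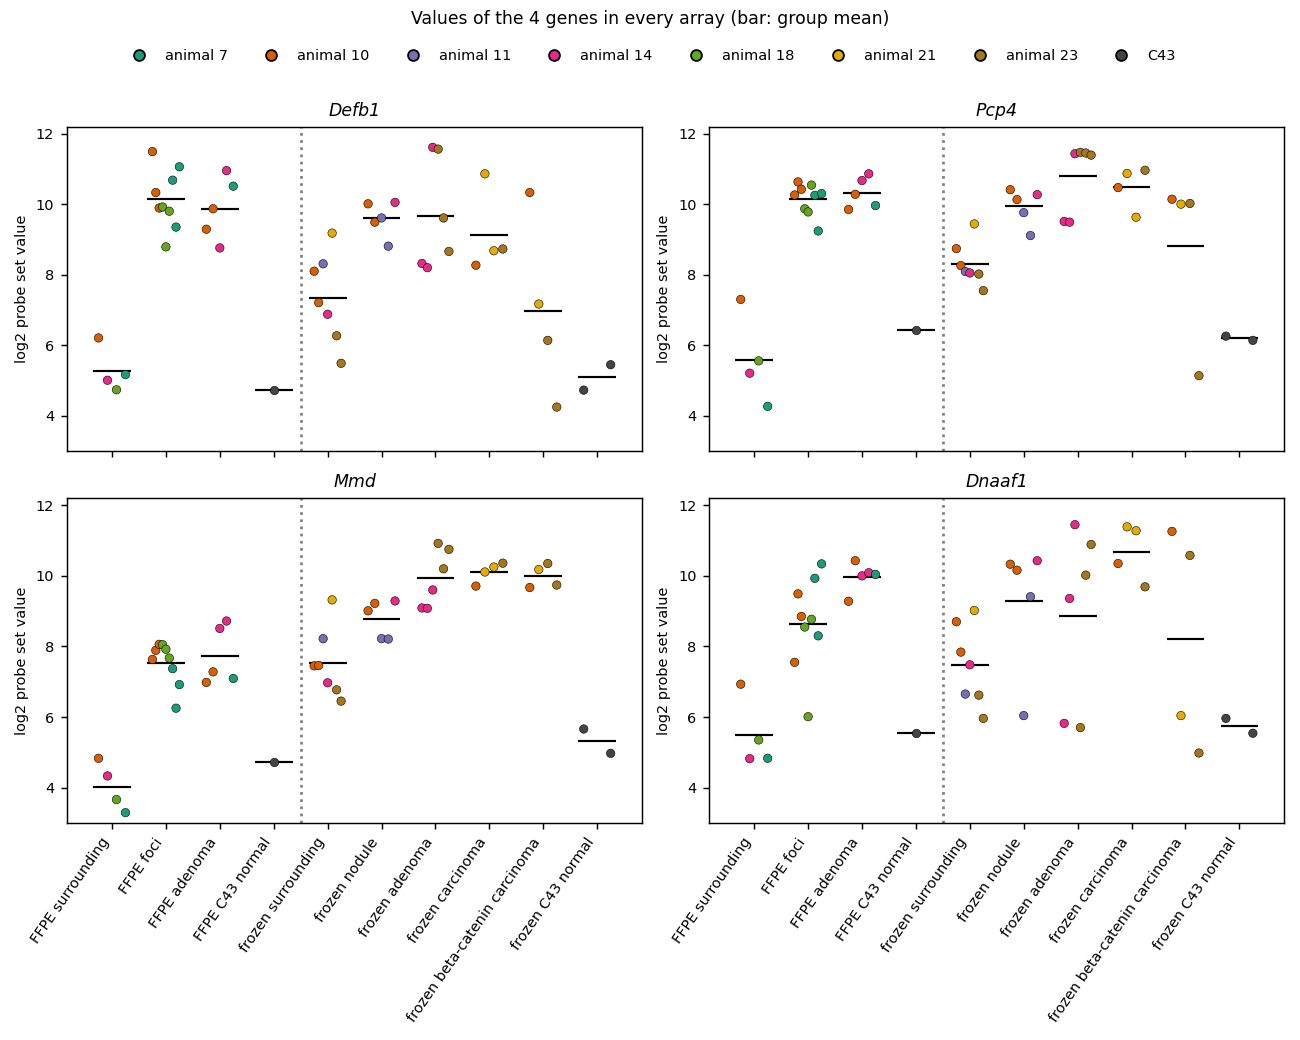
Deposited log2 values of Defb1, Pcp4, Mmd and Dnaaf1 (vertical axis) in every array, by group (horizontal axis), with 1 point per array coloured by animal and a bar at the group mean. Left of the dotted line are FFPE groups, where foci stand clear of surrounding liver except 1 Dnaaf1 value at 6.01, and right of it frozen groups, where the ranges are wider.

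FFPE adenomas and foci were also set against each other. Both groups had a part in the choice of the genes, so their differences are given as a description and not as a test. Dnaaf1 was 1.17 ± 0.51 (SE) higher in adenomas (95% confidence interval 0.11 to 2.22). The differences of the others were -0.48 ± 0.39 for Defb1, -0.06 ± 0.33 for Pcp4 and -0.26 ± 0.31 for Mmd. None of the 14217 genes, the 4 included, was called in this comparison (0%, 633 at an unadjusted p under 0.05 in limma).

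Frozen surrounding liver varied widely from animal to animal in all 4 genes. Defb1 ran from 5.49 through 7.21 to 9.18 in its 7 arrays. Pcp4 ran from 7.55 through 8.09 to 9.44, and Mmd from 6.45 through 7.45 to 9.32. Dnaaf1 ran from 5.96 through 7.48 to 9.02. Gstp1 ranged from 10.30 to 13.47 in the same arrays, and the array from animal 21 was highest for all 4 genes, with Gstp1 at 13.21. Both arrays from animal 23 were the 2 lowest for each of the 4 genes, with Gstp1 at 10.30 and 10.48. The part of these Gstp1 differences in the values of the 4 genes was not tested. Fixed and frozen tissue were extracted by different kits, so levels were compared only within a fixation. In frozen and FFPE tissue alike, fewer cells of a type and less RNA per cell cannot be told apart.

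Nodules, called minitumours in the source names, stood higher than surrounding liver in all 4 genes, but none of the 4 passed the test. Defb1 was 10.01, 9.49, 9.61, 8.81 and 10.05, and 4 of the 5 nodules lay above the highest surrounding array. Pcp4 was 10.41, 10.13, 9.76, 9.11 and 10.27. Mmd was 9.01, 9.22, 8.22, 8.21 and 9.29, with none above the highest surrounding value of 9.32. Dnaaf1 was 10.33, 10.16, 6.04, 9.41 and 10.43, and nodule replicate 3 (animal 11) lay 3.37 below the nearest nodule. The fitted differences were close in size to that of Gstp1, 1.56 ± 0.34 (SE; limma adjusted p = 0.0532).

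Against surrounding liver, Mmd was 1.53 ± 0.39 higher in nodules (SE; interval 0.72 to 2.34; limma adjusted p = 0.0864). Defb1 was 1.99 ± 0.82 higher (interval 0.28 to 3.71; limma adjusted p = 0.307). Pcp4 was 1.80 ± 0.68 higher (interval 0.38 to 3.21; limma adjusted p = 0.256), and Dnaaf1 1.92 ± 1.18 (interval -0.55 to 4.39; limma adjusted p = 0.519). The count of 0 of 4 stands beside a call rate of 0.190% for higher genes (27 of 14217). Pcp4 passed when beta-catenin carcinoma replicate 4, which shares the fit, was left out (1.89, limma adjusted p = 0.0378). With only nodules and surrounding liver in the fit, Pcp4 (1.74, limma adjusted p = 0.00392) and Defb1 (1.98, limma adjusted p = 0.0227) passed.

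In frozen adenomas Pcp4, Mmd and Defb1 rose and Dnaaf1 split. Pcp4 was lowest at 9.49, had a median of 11.41 and reached 11.47, and all 3 adenomas of animal 23 were at 11.39 or above. All 6 adenomas thus exceeded every surrounding array, the lowest of them by only 0.05. The share of all genes that separate in this way was not counted for any frozen group. Mmd ran from 9.08 through 9.90 to 10.92, with 4 of 6 adenomas above the surrounding range. Defb1 ran from 8.20 through 9.14 to 11.61, with 3 of 6 above that range. The 6 values of Dnaaf1 were 5.82, 9.36, 11.45, 5.70, 10.02 and 10.89, so 4 adenomas lay above every surrounding array and 2 below every one. Each of the low adenomas had a high-Dnaaf1 adenoma in the same animal (14 or 23).

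Mmd rose 6.48-fold in frozen adenomas (2.70 ± 0.38 on the log2 scale, SE; limma adjusted p = 6.75e-05). Pcp4 rose 7.56-fold (2.92 ± 0.67; limma adjusted p = 0.0034) and Defb1 8.77-fold (3.13 ± 0.81; limma adjusted p = 0.0078). Dnaaf1 did not pass (1.66 ± 1.17, interval -0.78 to 4.10; limma adjusted p = 0.32). The count of 3 of 4 stands beside 15.4% of all genes called higher in adenomas (2194). With the labelled control set as block in place of the animal, Mmd (2.63, limma adjusted p = 0.00203) and Pcp4 (2.49, limma adjusted p = 0.0487) stayed called. Defb1 did not in that fit (2.59, limma adjusted p = 0.088). Without the 2 adenomas whose tumours were also in FFPE tissue, Mmd (2.83, limma adjusted p = 0.000172), Pcp4 (2.97, limma adjusted p = 0.00672) and Defb1 (3.11, limma adjusted p = 0.0125) were called as well, and Dnaaf1 was 0.97. Gstp1 rose by 2.32 ± 0.34 in the full comparison (limma adjusted p = 8.15e-05).

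A pair of adenomas of animal 14 had the same tumour number in frozen and FFPE tissue, and the order of Defb1 and Pcp4 between them was the same in both. Defb1 in tumour T4 was 8.20 frozen and 8.76 FFPE, and in T5 it was 11.61 and 10.95. Pcp4 was 9.49 and 10.67 in T4 and 11.43 and 10.86 in T5. Dnaaf1 was 9.36 and 10.00 in T4 and 11.45 and 10.09 in T5, and Mmd was 9.08 and 8.51 in T4 and 9.60 and 8.72 in T5. Each of the 4 genes was higher in T5 than in T4 in both preparations, though the FFPE array of T5 is the one whose source name conflicts with its group. The order was not particular to the 4 genes. Gstp1 was 13.63 in T4 and 14.27 in T5 frozen, and 13.43 and 13.77 in FFPE. Ggt1 was 9.08 and 9.42 frozen, and 8.64 and 9.04 in FFPE.

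Carcinomas without the beta-catenin label kept high Mmd with little scatter, while the other 3 genes were higher in value but did not pass. Mmd was 9.71, 10.11, 10.25 and 10.36 (SD 0.28), all above the surrounding range, the lowest by 0.39. Pcp4 was 10.47, 10.87, 9.63 and 10.96, also all above it, the lowest by 0.19. Dnaaf1 was 10.35, 11.39, 11.28 and 9.69, and these 4 arrays formed its highest frozen group by mean, with no low lesion among them. Defb1 was 8.27, 10.86, 8.68 and 8.73, and only carcinoma replicate 2 exceeded the highest surrounding array.

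Mmd rose 4.48-fold in carcinomas (2.16 ± 0.41, SE; limma adjusted p = 0.00194). Dnaaf1 differed by 2.92 ± 1.26 (interval 0.30 to 5.53; limma adjusted p = 0.149), Pcp4 by 1.76 ± 0.72 (interval 0.26 to 3.26; limma adjusted p = 0.126) and Defb1 by 1.36 ± 0.87 (interval -0.46 to 3.18; limma adjusted p = 0.361). The count of 1 of 4 stands beside 4.48% of all genes called higher (637). Pcp4 passed without beta-catenin carcinoma replicate 4 (1.91, limma adjusted p = 0.00493) and without the animal term (2.18, limma adjusted p = 0.026). With only carcinomas and surrounding liver in the fit, Dnaaf1 (2.60, limma adjusted p = 0.000714) and Pcp4 (1.99, limma adjusted p = 0.015) passed.

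In the beta-catenin carcinomas the 4 genes came apart: Mmd stayed high in every tumour while Defb1, Pcp4 and Dnaaf1 differed widely from tumour to tumour. Mmd was 9.67, 10.18, 10.35 and 9.74 (SD 0.33), all above the surrounding range, the lowest by 0.35. Defb1 was 10.33, 7.17, 6.14 and 4.25, with 1 tumour above that range and 1 below it. Pcp4 was 10.14, 10.00 and 10.02 in replicates 1 to 3 and 5.14 in replicate 4. Replicate 4 thus fell below every surrounding array in Pcp4, while replicate 3, from the same animal 23, lay above every one. Dnaaf1 was 11.26, 6.04, 10.58 and 4.98, 2 tumours above the surrounding range and 1 below it (SD 3.17, the 4th widest spread of 14217 genes). Gstp1 was 14.05, 14.35, 13.70 and 12.17 in the same tumours, again lowest in replicate 4, whose array median (5.53) and mean correlation with the other frozen arrays (0.969) were within their range.

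Mmd rose 4.67-fold in the beta-catenin group (2.22 ± 0.40, SE; limma adjusted p = 0.000623). The other differences were -0.29 ± 0.84 for Defb1 (interval -2.04 to 1.46; limma adjusted p = 0.86), 0.33 ± 0.69 for Pcp4 (interval -1.11 to 1.78; limma adjusted p = 0.798) and 0.68 ± 1.21 for Dnaaf1 (interval -1.84 to 3.20; limma adjusted p = 0.761). The count of 1 of 4 stands beside 7.74% of all genes called higher (1101). Without replicate 4, Pcp4 passed at 1.50 (limma adjusted p = 0.023) and the difference of Defb1 turned to 0.34. Without replicate 1, whose source name lacks the mutation, the differences were -1.57 for Defb1, -0.20 for Pcp4, -0.35 for Dnaaf1 and 2.26 for Mmd (limma adjusted p = 0.00244).

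**Figure D2:**
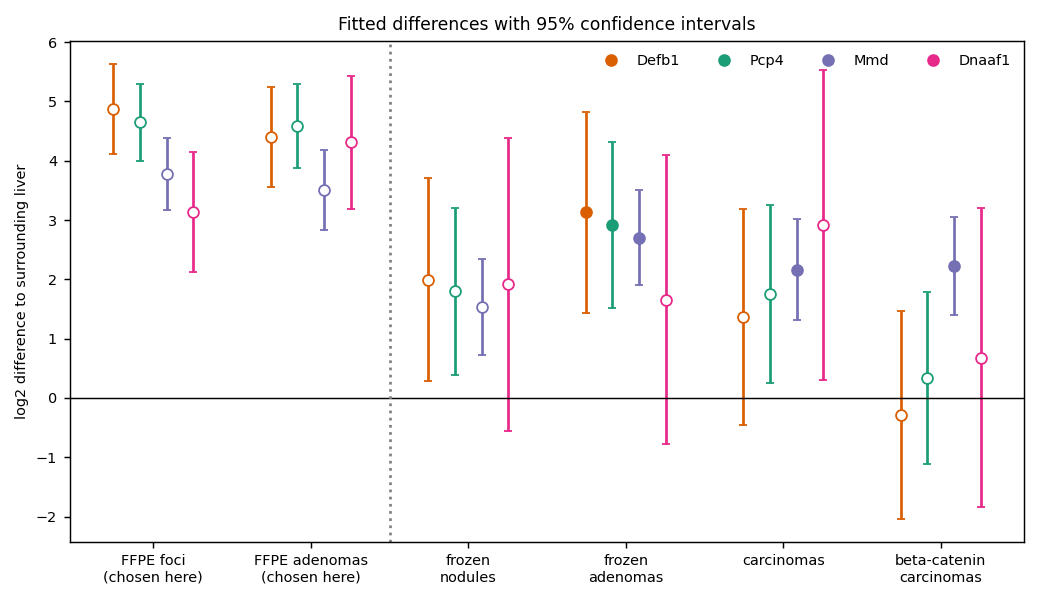
Fitted log2 difference to surrounding liver (vertical axis) for each gene in 6 lesion groups, with 95% confidence intervals; filled points passed an adjusted p under 0.05 in limma, and FFPE points are open because those contrasts chose the genes. Mmd keeps an interval above 0 in all 4 frozen groups, and Defb1 in beta-catenin carcinomas is centred at -0.29.

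Lesion types were also set against each other. Defb1 was lower in beta-catenin carcinomas than in frozen adenomas by -3.42 ± 0.94 (SE; limma adjusted p = 0.0213), and Pcp4 by -2.59 ± 0.78 (limma adjusted p = 0.0321), where 8.48% of genes were called lower. Neither call survived leaving out beta-catenin carcinoma replicate 4 (-2.65 with limma adjusted p = 0.11 for Defb1, -1.15 with limma adjusted p = 0.158 for Pcp4). Leaving out adenoma replicate 4 also ended both calls (-2.76, limma adjusted p = 0.059, and -2.44, limma adjusted p = 0.063), adenoma replicates 5 and 6 each ended that of Pcp4 (-2.45 and -2.47), and beta-catenin carcinoma replicate 3 ended that of Defb1 (-3.48, limma adjusted p = 0.0577). With the labelled control set as block both were lost as well (-2.51, limma adjusted p = 0.669, and -1.88, limma adjusted p = 0.709), and with only these 2 groups in the fit (-4.74, limma adjusted p = 0.073, and -3.85, limma adjusted p = 0.128). Mmd differed by -0.47 (interval -1.40 to 0.45) and Dnaaf1 by -0.98 (interval -3.80 to 1.84) between the same groups.

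Between the carcinoma groups none of the 4 genes passed, and neither did any other gene (0% called, 723 at an unadjusted p under 0.05 in limma). Dnaaf1 was -2.24 ± 1.35 (SE; interval -5.05 to 0.58) in the beta-catenin group relative to the other carcinomas. Defb1 was -1.65 ± 0.94 (interval -3.61 to 0.31) and Pcp4 -1.43 ± 0.77 (interval -3.04 to 0.19). Mmd was 0.06 ± 0.44 (interval -0.86 to 0.98), so a difference in Mmd of more than a doubling lay outside the interval. None of the 4 genes passed between adenomas and nodules (0% of genes called, 2265 at an unadjusted p under 0.05 in limma), carcinomas and nodules (0%, 2211) or carcinomas and adenomas (2.95%). The nearest of these 3 comparisons was Mmd in adenomas over nodules, 1.16 ± 0.46 (interval 0.21 to 2.12; limma adjusted p = 0.226).

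Each frozen lesion was next set against the surrounding array that its labels name as control, with 1 such array for each of 7 control sets. Mmd was higher in 17 of 19 lesions and at the level of the control in the other 2, both nodules of animal 11, with a median difference of 2.21 and a highest of 4.15. Pcp4 was higher in 18 of 19 lesions (median 1.67, range -2.40 to 3.45), the exception being beta-catenin carcinoma replicate 4. Defb1 was higher in 16 of 19 (median 1.44, range -2.01 to 5.28), and lower in carcinoma replicate 3 and in replicates 2 and 4 of the beta-catenin group. Dnaaf1 was higher in 14 of 19 (median 2.36, range -2.99 to 4.62). Gstp1 was higher in 19 of 19 (0.67 to 3.64). Lesions that share a control array are not independent, so no test was made of these counts.

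**Figure D3:**
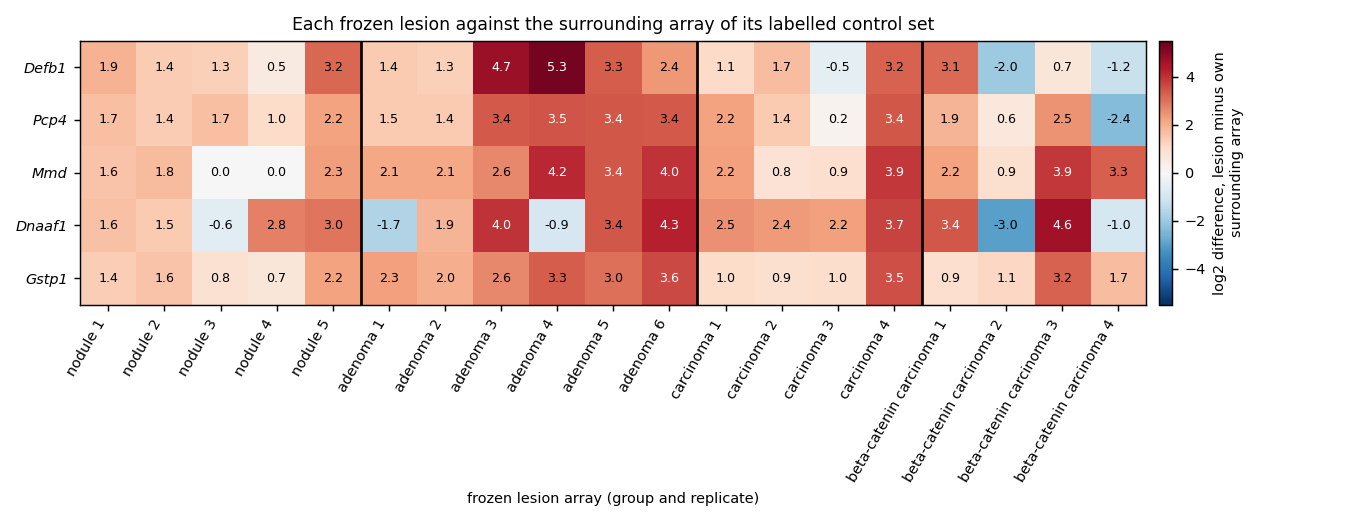
Log2 difference of each of 19 frozen lesions (columns, by group and replicate) from its own labelled surrounding array, for the 4 genes and Gstp1 (rows); red is higher and blue lower in the lesion. Mmd and Gstp1 hold no blue cell, Dnaaf1 has 5 lesions below 0, and beta-catenin carcinoma replicate 4 is below 0 for Defb1, Pcp4 and Dnaaf1.

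Dnaaf1 showed no intermediate values in frozen lesions. Of the 19 lesions, 5 lay between 4.98 and 6.04 and the other 14 between 9.36 and 11.45, with an empty stretch of 3.32 between them. Frozen surrounding liver lay largely within that stretch (5.96 to 9.02, median 7.48). How many other genes have such a stretch was not counted. The low lesions were nodule replicate 3, adenoma replicates 1 and 4, and beta-catenin carcinoma replicates 2 and 4, from 4 animals (11, 14, 21 and 23). In each of those animals another lesion was high. Low Dnaaf1 did not go with low values of the other genes throughout: adenoma replicate 4 had Dnaaf1 at 5.70 with Defb1 at 11.56, Pcp4 at 11.47 and Mmd at 10.92. The spread of Dnaaf1 ranked 22nd of 14217 genes among nodules (SD 1.85) and 11th among adenomas (SD 2.52).

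The 4 genes were also set beside Gstp1 array by array. In frozen arrays Gstp1 was 13.84 to 14.30 in nodules, 13.35 to 14.27 in adenomas and 14.02 to 14.19 in carcinomas. These are high values on the array's scale, and how far that narrowed the range of Gstp1 was not tested. At those levels Dnaaf1 ranged from 5.70 to 11.45 and Defb1 from 8.20 to 11.61. Mmd stayed between 8.21 and 10.92 in the same 15 lesions. The C43 normal arrays held the 4 genes at low levels. Frozen C43 values were 4.73 and 5.45 for Defb1, 6.26 and 6.14 for Pcp4, 5.66 and 4.97 for Mmd, and 5.96 and 5.54 for Dnaaf1, at or below the lowest frozen surrounding array for each gene.

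**Figure D4:**
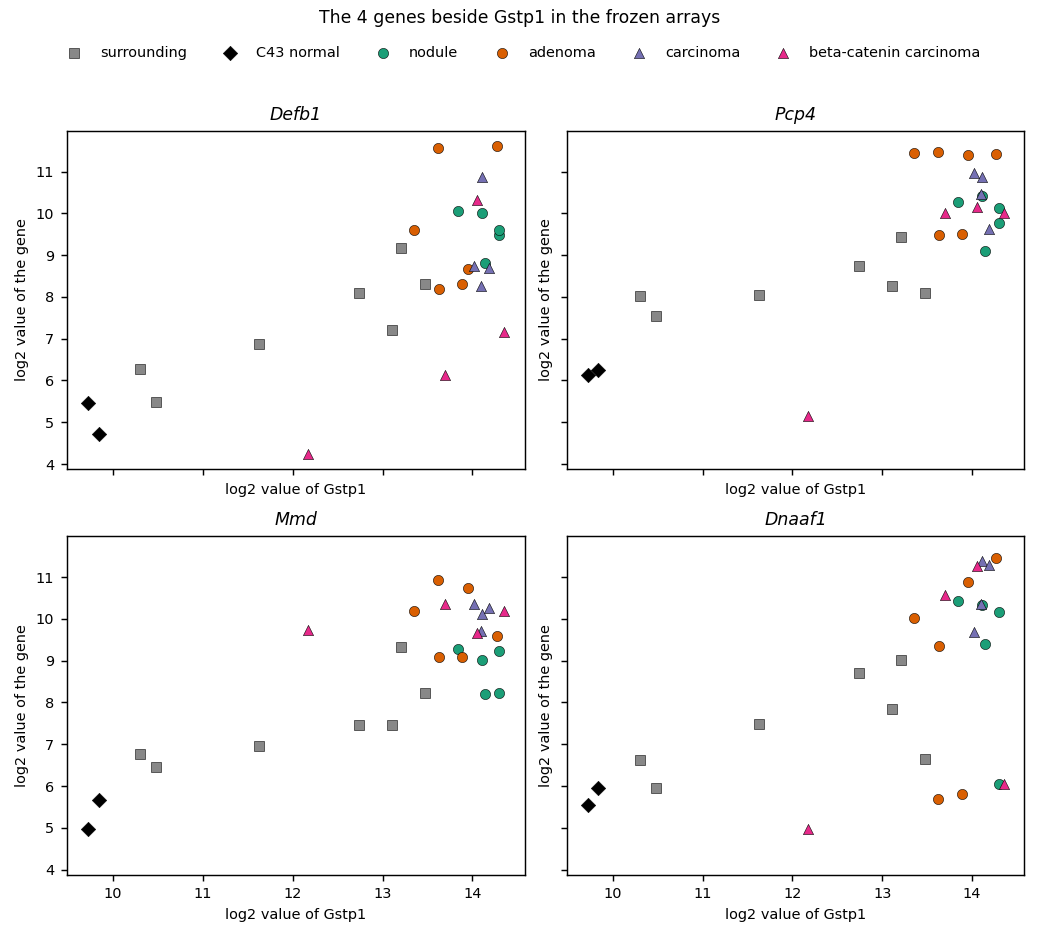
Log2 value of each of the 4 genes (vertical axes) against that of Gstp1 (horizontal axis) in the frozen arrays, with 1 symbol per array shaped and coloured by group. Lesions crowd at Gstp1 values above 13.00 while Dnaaf1 splits there into low and high arrays; the beta-catenin carcinoma at a Gstp1 of 12.17 is low in Defb1, Pcp4 and Dnaaf1 and high in Mmd.

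Profiles most like each gene were ranked by Pearson correlation over the arrays of a fixation, which mix groups and share animals, so the values only describe likeness. Over the 26 frozen arrays, Mmd was most like Ugdh (0.92) and Akr7a3 (0.92), enzymes of glucuronate and aldehyde metabolism, and Tubb6 (0.91). Defb1 was most like Gria3 (0.85), the glutamyl transferase and focal marker Ggt1 (0.84) and Fgf1 (0.83). Pcp4 was most like Ddit4l (0.89), Tmbim1 (0.88) and the aldo-keto reductase Akr1b8 (0.87). Dnaaf1 had no close match, with Igfbp3 (0.73), Spring1 (0.73) and Cracdl (0.72) nearest.

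Among themselves the 4 genes fell further apart in frozen than in FFPE tissue. Defb1 and Pcp4 correlated at 0.80 over frozen arrays and at 0.93 over the 18 FFPE arrays. Mmd and Defb1 did so at 0.42 and 0.87, and Mmd and Dnaaf1 at 0.41 and 0.76. Mmd and Pcp4 had 0.96 in FFPE tissue, each among the 3 genes most like the other, and 0.62 in frozen tissue. In FFPE arrays the nearest to Defb1 were Ugdh (0.96), Akr1b8 (0.95) and Ggt1 (0.94), and beside Mmd the nearest to Pcp4 were Akr1b8 (0.96) and Akr7a3 (0.96). Mmd was also near Ddc (0.95) and Slc48a1 (0.93). Dnaaf1 was nearest to Car2 (0.88), Ptgr1 (0.87) and Pcp4 (0.86). The FFPE contrast chose the 4 genes, which makes them alike there by choice. The lesion types also differ between the fixations: only frozen arrays hold nodules and carcinomas, and only FFPE arrays hold foci.

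The families to which the 4 genes belong were looked up for company. Of 23 listed defensins and epithelial antimicrobial peptides, 12 were measured, and none was called in nodules, adenomas or carcinomas (medians -0.07, 0.06 and -0.11, beside 0.02, 0.02 and -0.02 for all genes). In beta-catenin carcinomas 2 fell, where 9.58% of all genes were called lower: the iron hormone gene Hamp fell by 2.04 ± 0.51 (SE; limma adjusted p = 0.00787) and Defa5 fell by 0.48 ± 0.16 (limma adjusted p = 0.0376).

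Among calmodulin and its IQ-motif partners, 19 of 21 were measured, and 4 rose in adenomas, 4 in carcinomas and 4 in beta-catenin carcinomas, where 2 fell. Of all genes, 15.4%, 4.48% and 7.74% were called higher in these groups, and 9.58% lower in the last. The nearest relative of Pcp4, Pcp4l1, rose in carcinomas (1.90 ± 0.56, SE; limma adjusted p = 0.033) and in beta-catenin carcinomas (2.22 ± 0.54; limma adjusted p = 0.00692), where Pcp4 itself was not called. Myo5a, a cargo motor with calmodulin light chains, rose in adenomas (1.25 ± 0.25; limma adjusted p = 0.00127) and carcinomas (1.31 ± 0.27; limma adjusted p = 0.00366). Iqgap3 rose by 0.79 and Calm2, a calmodulin gene, by 0.44 in adenomas. The list's medians were 0.06, 0.05 and 0.04 in the 3 groups, close to those of all genes.

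Of 10 listed PAQR receptors and Golgi partners, 9 were measured. In adenomas 2 rose and 2 fell, where 15.4% of all genes were called higher and 9.57% lower. There Paqr8, a membrane progestin receptor, rose by 1.89 ± 0.23 (SE; limma adjusted p = 1.78e-05), and its relative Paqr7 fell by 1.13 ± 0.17 (limma adjusted p = 9.19e-05). The adiponectin receptors also parted, Adipor2 falling by 0.65 and Adipor1 rising by 0.33. In carcinomas 1 rose (Paqr8, 0.85) and 1 fell (Paqr7, by 0.83), and in beta-catenin carcinomas 2 rose and 2 fell. The shares of all genes called were 4.48% higher and 6.91% lower in carcinomas and 7.74% and 9.58% in beta-catenin carcinomas.

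Counts of other motile cilium genes stand beside the 15.4% of all genes called higher in adenomas and the 7.74% in beta-catenin carcinomas. Of 23 listed dynein arm assembly factors, 9 were measured. In adenomas 3 rose: Ruvbl1 (0.58), an ATPase with many other roles, Pih1d2 (0.49) and Dnaaf5 (0.48). None was called in nodules or carcinomas, and 1 rose in beta-catenin carcinomas (Ruvbl2, 0.40). Of 29 axonemal and motile cilium genes 18 were measured, and in adenomas 2 rose, the ciliary microtubule protein Tekt1 (1.06 ± 0.20, SE; limma adjusted p = 0.000623) and the radial spoke protein Rsph9 (0.77 ± 0.20; limma adjusted p = 0.00815). None was called in the other frozen lesions. The mean of 4 measured markers of motile ciliated cells (of 8 listed) was 3.91 to 4.09 in frozen surrounding liver, 4.12 to 4.28 in nodules, 4.21 to 4.78 in adenomas, 3.96 to 4.11 in carcinomas and 4.09 to 4.24 in beta-catenin carcinomas. Every nodule and adenoma thus lay above every surrounding array in these markers, while carcinomas overlapped surrounding liver. The separation was narrow in nodules (4.12 against 4.09), and all these means lay below the frozen array medians (5.49 to 5.59). Of the 4 markers only Tekt1 was called in adenomas. How many other genes separate in this way was not counted. Dnaaf1 was 5.70 to 11.45 in frozen adenomas and 9.69 to 11.39 in carcinomas. In FFPE tissue the mean of the same 4 markers was 4.59 to 5.04 in surrounding liver (median 4.78). It was 4.16 to 5.11 in foci (median 4.82) and 4.29 to 4.80 in adenomas (median 4.50), so both FFPE lesion groups overlapped surrounding liver. The part of ciliated cells in these values was not tested.

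Targets of the oxidative stress regulator NRF2, which include several of the genes most like Mmd and Pcp4, were often called higher in adenomas and both carcinoma groups. Of 18 listed, 17 were measured. In nodules 2 rose, in adenomas 15, in carcinomas 15 and in beta-catenin carcinomas 12, with none falling (medians 0.85, 1.43, 1.19 and 0.89). Of all genes 0.190%, 15.4%, 4.48% and 7.74% were called higher there, so 15 of 17 in adenomas and carcinomas stood above the background. The cystine transporter Slc7a11 had the largest change in adenomas (4.52 ± 0.62, SE; limma adjusted p = 4.79e-05), followed by Akr1b8 (3.23 ± 0.48; limma adjusted p = 0.0001).

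Markers of hepatocytes were high throughout, with a mean over 8 of 8 markers of 12.58 to 13.45 in every frozen array of the compared groups, as the tissue label says. That mean was 13.06 to 13.45 in surrounding liver, 12.92 to 13.29 in nodules and 12.76 to 13.09 in adenomas. It was 12.87 to 13.13 in carcinomas and 12.58 to 13.29 in beta-catenin carcinomas. FFPE arrays had 12.92 to 13.29 in surrounding liver, 12.81 to 12.93 in foci and 12.78 to 13.21 in adenomas. Cholangiocyte markers were higher in nodules and adenomas than in surrounding liver. The mean over 6 of 8 measured was 5.26 to 5.85 in frozen surrounding liver, 5.96 to 7.70 in nodules and 6.04 to 8.36 in adenomas, and Krt19 rose in adenomas by 4.37 ± 1.02 (SE; limma adjusted p = 0.00369) and Epcam by 1.40 ± 0.28 (limma adjusted p = 0.00107). In carcinomas the same mean was 5.10 to 6.07 and in beta-catenin carcinomas 5.11 to 7.69. In nodule replicates 1 to 5 Krt19 was 7.66, 7.31, 7.35, 10.60 and 7.85, beside Defb1 at 10.01, 9.49, 9.61, 8.81 and 10.05. Nodule replicate 4 was thus highest in Krt19 and lowest in Defb1. In adenoma replicates 1 to 6 Krt19 was 10.46, 10.19, 9.03, 11.14, 7.69 and 10.92, beside Defb1 at 8.32, 8.20, 11.61, 11.56, 9.61 and 8.66. Adenoma replicates 1 and 2, with the highest cholangiocyte means (8.08 and 8.36), had the lowest Defb1. Krt19 was 5.72, 8.42, 4.16 and 7.99 in carcinoma replicates 1 to 4, beside Defb1 at 8.27, 10.86, 8.68 and 8.73, so replicate 2 was highest in both. In beta-catenin carcinomas Krt19 was 9.72, 4.90, 6.22 and 3.83, beside Defb1 at 10.33, 7.17, 6.14 and 4.25, with replicate 1 highest and replicate 4 lowest in both. Carcinoma replicate 3, where Krt19 was below every surrounding array (4.58 to 7.64), had Mmd at 10.25, Pcp4 at 9.63 and Dnaaf1 at 11.28, and its Defb1 was below that of its own control array. In FFPE tissue the mean was 4.95 to 5.39 in surrounding liver, 5.17 to 6.30 in foci and 5.54 to 6.23 in adenomas. Krt19 was above the FFPE surrounding range (3.41 to 4.48) in all 9 foci (4.53 to 9.09) and all 5 adenomas (5.24 to 7.58). In foci that separation was narrow (4.53 against 4.48), and the mean of the list overlapped surrounding liver there. How many other genes separate from the FFPE surrounding arrays was not counted. Foci replicate 1 was highest in both Krt19 (9.09) and Defb1 (11.49), while foci replicate 9, lowest in Krt19 (4.53), had Defb1 at 11.06. The part of cholangiocyte RNA in the values of the 4 genes was not tested.

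Macrophages are the cells in which Mmd was first described. The mean over 8 of 9 markers was 8.91 to 9.47 in frozen surrounding liver, 8.51 to 8.78 in nodules, up to 9.20 in adenomas (median 8.55), 7.84 to 8.81 in carcinomas and 7.68 to 8.49 in beta-catenin carcinomas. In adenomas 4 of the 8 fell, in carcinomas 4 and in beta-catenin carcinomas 5, and none rose in these groups, where 9.57%, 6.91% and 9.58% of all genes were called lower. Mmd was 9.08 or higher in every array of these groups. The part of macrophage RNA in the Mmd values was not tested. Means of the stellate cell and fibroblast, endothelial, lymphocyte and blood cell lists overlapped surrounding liver in each frozen lesion group. In FFPE tissue the stellate cell and fibroblast mean was 6.54 to 7.08 in surrounding liver, 6.60 to 7.96 in foci and 7.16 to 7.72 in adenomas. The adenomas thus lay above surrounding liver in that list, and the other lists named here overlapped it in both FFPE lesion groups. The part of these cells in the values of the 4 genes was not tested.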

How the data were processed

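Affymetrix rat arrays measured total RNA of 47 samples. The deposited values are log2 probe set summaries made by the authors and were used as deposited; how they were normalized is not given in the sources at hand, and no detection calls came with them. Per the labels' protocols, frozen RNA was labelled with a 3' IVT kit, and the kit for FFPE RNA is not stated there. Of 31042 probe sets, 20826 with 1 gene symbol gave 14217 genes, each read from its brightest probe set in a fixation. Those with several symbols (436) or none (9780) were not used. Frozen arrays had medians of 5.49 to 5.59 and FFPE arrays of 5.58 to 5.68. An array correlated with the others of its fixation at a mean r of 0.966 to 0.979 (frozen) or 0.886 to 0.940 (FFPE), lowest in FFPE adenoma replicate 4. The number of arrays limits the precision.

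Frozen and FFPE arrays had separate fits in limma 3.58.1 under R 4.3.3 (group and animal as fixed terms, moderated with an intensity trend, 17 and 12 residual degrees of freedom). Arrays of 1 animal pair because they come from the same rat (median correlation of deviations from group means 0.13 over 50 frozen pairs and 0.11 over 23 FFPE pairs, against -0.02 and -0.04 between animals). Calls used a Benjamini-Hochberg adjusted p under 0.05 over all genes, and errors are standard errors of the fit. The fitting code was tested on simulated data. The 4 genes, the gene lists and the tests were chosen with earlier results of these data known. Genes named are the 4, Gstp1 and Ggt1, up to 4 called genes with the largest change per list, and the 3 genes most correlated with each of the 4; Krt19 levels by array and the lesions named for low Dnaaf1 were chosen after their values were seen. Alternatives varied the block, probe sets, normalization, filter, variance trend, groups in the fit and each array in turn.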

Additional observations from a re-analysis of the deposited data

Results flagged for a closer look

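Among 32 combinations of gene and group with 4 to 10 arrays, 2 held an array that stood far from the rest of its group by Dixon's criterion, where chance marks about 1 in 20. In beta-catenin carcinomas, Pcp4 in replicate 4 was 5.14 while the nearest of the other 3 was 10.00, a gap of 0.972 of the group's range. In nodules, Dnaaf1 in replicate 3 was 6.04 while the nearest of the other 4 was 9.41, a gap of 0.767 of the range.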

How the results depend on the processing

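Mmd kept its call in adenomas, carcinomas and beta-catenin carcinomas in all fits run, at 2.38 to 2.95, 1.84 to 2.64 and 1.94 to 2.56 when 1 array was left out. Other probe set rules, quantile normalization, leaving out dim genes and fitting no intensity trend changed no call of the 4 genes, between frozen lesion types included. Without the animal as replicate block, the rise of Pcp4 in carcinomas passed (2.18), as it did with the animal as a random block (2.11), which also turned the sign of 3 uncalled differences: Pcp4 in carcinomas over nodules (0.47) and Mmd in carcinomas over adenomas (0.05) and between the carcinoma groups (-0.09). Without the block, 6 differences between lesion types, none of them called, changed sign: Pcp4 in carcinomas over nodules (0.55), Mmd over adenomas in carcinomas (0.17) and beta-catenin carcinomas (0.05), Mmd between the carcinoma groups (-0.12), and Pcp4 (0.18) and Mmd (0.19) in FFPE adenomas over foci. The block-free fit called 93 genes in nodules in place of 32, 437 in adenomas over nodules, 1772 in carcinomas over nodules, 2322 in carcinomas over adenomas (419 with the block), 3035 in beta-catenin carcinomas over adenomas (1953) and 161 in FFPE adenomas (307). With the labelled control set as block, Defb1 in adenomas lost its call (2.59), and the uncalled differences of Defb1 in beta-catenin carcinomas (0.08) and of Pcp4 in carcinomas over nodules (0.12) changed sign. With only the 2 compared groups fitted, Defb1 (1.98) and Pcp4 (1.74) passed in nodules, Pcp4 (1.99) and Dnaaf1 (2.60) passed in carcinomas, and Defb1 in beta-catenin carcinomas was 0.04. Between lesion types that fit ended the calls of Defb1 (-4.74, limma adjusted p = 0.073) and Pcp4 (-3.85, limma adjusted p = 0.128) in beta-catenin carcinomas against adenomas. It also turned the uncalled differences in adenomas over nodules of Defb1 (-0.67), Pcp4 (-0.13) and Mmd (-0.03), of Pcp4 in carcinomas over nodules (0.20) and of Mmd between the carcinoma groups (-0.12). For comparisons between lesion types, all alternatives other than dropping the block and leaving out arrays were chosen after seeing the data, as was leaving out the 2 adenomas of tumours also in FFPE tissue, which changed no call of the 4 genes and gave 139 called genes in adenomas over nodules in place of 0. The cause of these changes was not tested. Leaving out 1 array at a time, added after seeing the data for gene counts, gave 0 to 81 called genes in nodules, 2577 to 3651 in adenomas, 665 to 1861 in carcinomas, 1640 to 2520 in beta-catenin carcinomas, 892 to 2394 in beta-catenin carcinomas over adenomas and 0 to 632 in carcinomas over adenomas.

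Leaving out 1 array at a time moved Pcp4 between 1.38 and 1.96, Defb1 between 1.33 and 2.40, Mmd between 1.09 and 2.10 and Dnaaf1 between 1.43 and 2.35 in nodules. In adenomas it moved Dnaaf1 between 1.04 and 2.43, Defb1 between 2.57 and 3.51 and Pcp4 between 2.65 and 3.16. In carcinomas it moved Pcp4 between 1.16 and 2.09, Defb1 between 0.78 and 2.02 and Dnaaf1 between 2.47 and 3.55. In beta-catenin carcinomas it moved Defb1 between -1.57 and 0.34, Pcp4 between -0.23 and 1.50 and Dnaaf1 between -0.39 and 1.74. Between lesion types, Dnaaf1 in adenomas over nodules ran from -0.78 to 0.52, Defb1 and Pcp4 in carcinomas over nodules from -1.18 to 0.17 and from -0.60 to 0.37, Dnaaf1 in beta-catenin carcinomas over adenomas from -2.29 to 0.16, Mmd between the carcinoma groups from -0.10 to 0.39, and Pcp4 in FFPE adenomas over foci from -0.31 to 0.20. With 4 to 7 arrays a group from 2 to 5 animals, the intervals of Defb1 and Dnaaf1 in frozen tissue span several-fold changes, so a lack of a call there sets wide limits only.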

Other observations

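The FFPE array named C43 normal, which was left out of all comparisons because its labels conflict, held Defb1 at 4.72, Pcp4 at 6.43, Mmd at 4.72 and Dnaaf1 at 5.56. Its Gstp1 was 10.05. Each of the 4 values except that of Defb1 lay within the range of the 4 FFPE surrounding arrays, and Defb1 lay just below it (lowest 4.74).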
